A study of Mus musculus with 4 samples.

Results

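The Hox genes were followed as the 48 probe sets, of 45037 on the array, whose single annotated gene was a numbered member of the Hoxa, Hoxb, Hoxc or Hoxd cluster. They stand for 33 of the 18193 genes named by a single-gene probe set. A probe set is a group of short oligonucleotides that together report 1 transcript. The RefSeq table lists 39 such Hox genes, and the other 6 are not analysed here; 3 probe sets annotated to several genes, a Hox gene among them, were left out. The Hoxa cluster, on chromosome 6, had 16 probe sets of 9 genes. The Hoxb cluster, on chromosome 11, had 11 of 9, the Hoxc cluster, on chromosome 15, had 11 of 7, and the Hoxd cluster, on chromosome 2, had 10 of 8.

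Hox genes encode homeodomain transcription factors that give cells along the body axis their position. Within a cluster the genes lie in the order in which they are switched on during gastrulation and in which they act from head to tail, and genes of the same number in different clusters are paralogs. In pluripotent cells their promoters carry Polycomb marks together with marks of active chromatin and are held at low output, while fibroblasts keep a Hox pattern that reflects where in the body they came from.

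The 4 arrays held RNA of mouse cells. The first was the induced pluripotent stem cell (iPSC) clone Adeno-1, a single clone reprogrammed with adenoviral vectors out of tail-tip fibroblasts. The others were NT-1, NT-2 and NT-3, embryonic stem cell lines obtained from cloned blastocysts after nuclear transfer (NT) of that clone, here called NT-ESC lines 1, 2 and 3. All cells were grown with serum and the cytokine LIF over a feeder layer of irradiated mouse embryonic fibroblasts (MEFs), and a preplating step was used to remove the feeders. Strain, sex and age are not in the labels. The labels call the lines subclones and do not say whether they were derived separately, so differences among the 3 lines, given as SDs, may be technical. SEs and p-values come from limma, which draws each probe set's variance towards a value estimated from all 45037 probe sets. That value weighed more (3.69 to 4.66 degrees of freedom) than the probe set's own variance (2). For lines against clone, the own variance is that among the 3 lines. For a line against the other 3 arrays, it is that among those arrays, the clone included. The clone has 1 array.

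Levels are on the log2 intensity scale with each array's mean set to an assumed 7, because the deposited values behave as log2 ratios of log intensity to the array mean. Differences therefore scale with that choice; percentiles within an array do not. On each array the median over all probe sets was 6.82 to 6.84, and the upper quartile 8.22 to 8.26. No detection calls were used, and a level under the median does not by itself show that a transcript is absent. Since probe sets differ in affinity, their levels are set against the array median and against the same probe set on other arrays, never against one another as amounts of RNA. The 8 pluripotent cell markers stood at mean percentiles of 97.4 to 99.9, among them Pou5f1, which encodes Oct4, at 12.21 to 12.25. No differentiated cells were among the arrays, so these levels do not measure repression, and the genes are described only as Hox genes. Under the array median on all 4 arrays were 6 of 6 endoderm, 3 of 7 neural, 3 of 7 mesoderm and 5 of 19 fibroblast markers, against 33.2% of all genes by brightest probe set.

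The promoters of 19 of the 33 genes were found in the RefSeq table (GRCm38.p6), as 21 windows of 300 bases around a transcript start. They held a median of 15 CpG dinucleotides, against 7 over 32841 windows of all genes, with a range of 4 to 45. Of the Hox windows 10 (47.6%) had a GC content of at least 50% and an observed over expected CpG ratio of at least 0.6, against 33.5% of all windows. The motif TATAAA, searched on both strands, was in 2 Hox windows (9.5%, against 13.6% of all), CCAAT in 12 (57.1%, against 37.4%), and TGATTNAT, a form of the joint Hox and Pbx site, in 2 (9.5%, against 3.2%). The 250 bases before the start are printed for 4 genes, chosen after their values were seen, with each CpG in capitals. Hoxa13 and Hoxd10 were under the array median on all arrays. Hoxa7 and Hoxd9 were above it on all arrays, Hoxd9 at percentiles 52.8 to 53.4. Each of the 4 genes has 1 probe set. They lie at chr6:52260881-52261130 on the minus strand, chr2:74691641-74691890 on the plus strand, chr6:52218574-52218823 on the minus strand and chr2:74697513-74697762 on the plus strand.
Hoxa13: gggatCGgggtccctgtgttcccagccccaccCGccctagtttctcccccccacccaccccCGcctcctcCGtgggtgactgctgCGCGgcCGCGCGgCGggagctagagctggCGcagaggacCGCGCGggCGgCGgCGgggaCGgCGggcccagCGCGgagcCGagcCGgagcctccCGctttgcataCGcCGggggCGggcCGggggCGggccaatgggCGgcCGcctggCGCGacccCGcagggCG
Hoxd10: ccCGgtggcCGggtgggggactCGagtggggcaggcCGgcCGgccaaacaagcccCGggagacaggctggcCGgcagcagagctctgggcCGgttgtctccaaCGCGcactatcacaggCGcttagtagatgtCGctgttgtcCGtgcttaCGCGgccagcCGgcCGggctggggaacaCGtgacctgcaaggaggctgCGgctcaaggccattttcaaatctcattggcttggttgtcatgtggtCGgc
Hoxa7: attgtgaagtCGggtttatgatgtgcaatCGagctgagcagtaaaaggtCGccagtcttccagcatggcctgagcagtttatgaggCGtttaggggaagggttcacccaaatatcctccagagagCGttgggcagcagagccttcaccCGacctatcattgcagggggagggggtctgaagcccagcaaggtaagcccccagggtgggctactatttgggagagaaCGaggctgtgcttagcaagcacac
Hoxd9: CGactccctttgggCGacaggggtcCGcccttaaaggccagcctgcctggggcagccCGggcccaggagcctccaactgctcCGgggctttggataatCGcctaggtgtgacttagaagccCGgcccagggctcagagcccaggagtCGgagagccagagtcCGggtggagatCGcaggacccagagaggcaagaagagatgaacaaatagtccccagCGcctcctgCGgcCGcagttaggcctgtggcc
These stretches hold 35 CpG for Hoxa13, 20 for Hoxd10, 7 for Hoxa7 and 13 for Hoxd9. Over all 21 windows, dim genes lay at both ends: the same stretch held 6 CpG for Hoxa2 and Hoxd8, 7 for Hoxb1 and 31 for Hoxd13. Genes with 1 probe set above the median on all arrays and others under it varied as well. Their stretches held 28 CpG for Hoxa5, 18 for Hoxa3 and 3 for Hoxa9.

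Most Hox probe sets were dim on every array. Under the array median were 37 of 48 (77.1%) in the clone, 38 (79.2%) in line 1, 37 (77.1%) in line 2 and 36 in line 3. On all 4 arrays at once it was 36 of 48, against 47.5% of all probe sets and 41.3% of the 34945 probe sets with a single gene. Of the 48, 19 were also under the lower quartile on all arrays, and 1 probe set passed the upper quartile on any array. Counted by gene, 22 of 33 had every probe set under the median on all arrays. With each gene represented by its brightest probe set the share under the median on all arrays was 66.7%, against 33.2% of all genes. The share is a description; the array median is a fixed yardstick and not a test of expression.

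**Figure D1:**
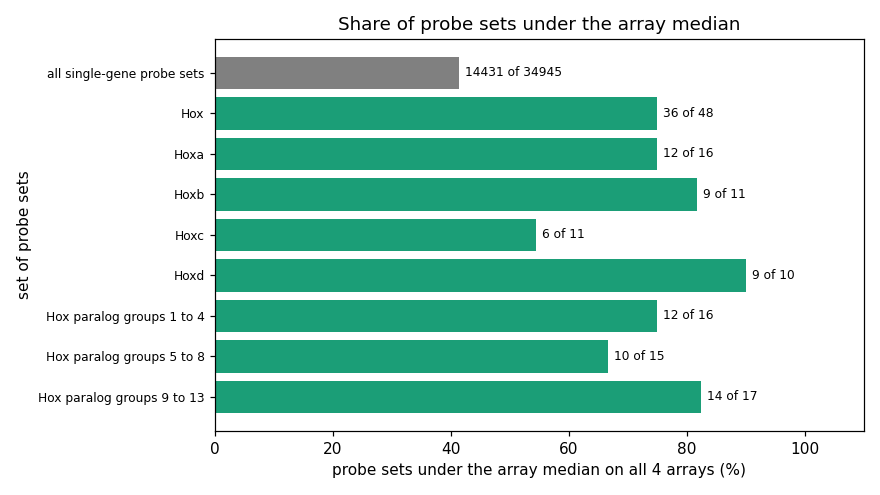
Share of probe sets under the array median on all 4 arrays, in percent, for all 34945 single-gene probe sets (grey bar), for the Hox probe sets as a whole, by cluster and by paralog group; labels give counts. The Hoxd bar stands for 9 of 10 probe sets, the Hoxc bar is at 54.5%, and every Hox bar is above the 41.3% of all single-gene probe sets.

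By cluster, 9 of 10 Hoxd, 9 of 11 Hoxb, 12 of 16 Hoxa and 6 of 11 Hoxc probe sets were under the median on all arrays. The Hoxd genes, which pattern the limb, the genitalia and the caudal trunk, had 1 exception, Hoxd9. By paralog group, 12 of 16 probe sets of groups 1 to 4, which act in the hindbrain and neck, were under the median on all arrays. The same held for 10 of 15 of groups 5 to 8, which act in the thorax. It also held for 14 of 17 of groups 9 to 13, which act from the lower thorax to the tail and in the distal limb. Examples of dim probe sets, picked after their values were seen, are Hoxb1, Hoxd10, Hoxa10 and Hoxc8. Hoxb1, the hindbrain gene that retinoic acid induces early, read 4.63 in the clone, then 4.41, 4.57 and 4.51 in lines 1 to 3. Hoxd10 read 3.81 in the clone, then 3.92, 3.89 and 3.87 in lines 1 to 3, at percentiles 3.6 to 4.9. The clone lay above every line for Hoxb1 and under every line for Hoxd10, by small amounts. Hoxa10 had 2 probe sets between 4.63 and 4.96, and Hoxc8 ran from 4.45 to 4.61.

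The other dim genes, also outside the rule for naming, are given by their range over the arrays. Hoxa11 and Hoxa13, which shape the limb, ranged over 5.73 to 5.80 and 6.12 to 6.26. The probe sets of Hoxa4, a gene of the neck, lay at 3.61 to 3.80 and 4.25 to 4.52. In the Hoxb cluster Hoxb4, which is used to expand blood stem cells, lay at 5.83 to 6.57 over its 2 probe sets, and Hoxb5, Hoxb7 and Hoxb13 at 5.81 to 5.96, 5.67 to 5.87 and 6.06 to 6.19. Hoxc13, a gene of hair and nail, was closest to the median among them, at 6.54 to 6.80. In the Hoxd cluster Hoxd3, Hoxd11 and Hoxd12 ranged over 5.18 to 5.25, 5.49 to 5.58 and 5.12 to 5.22, and Hoxd13, the last gene of the cluster and a digit gene, over 6.12 to 6.53 on its 2 probe sets.

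**Figure D2:**
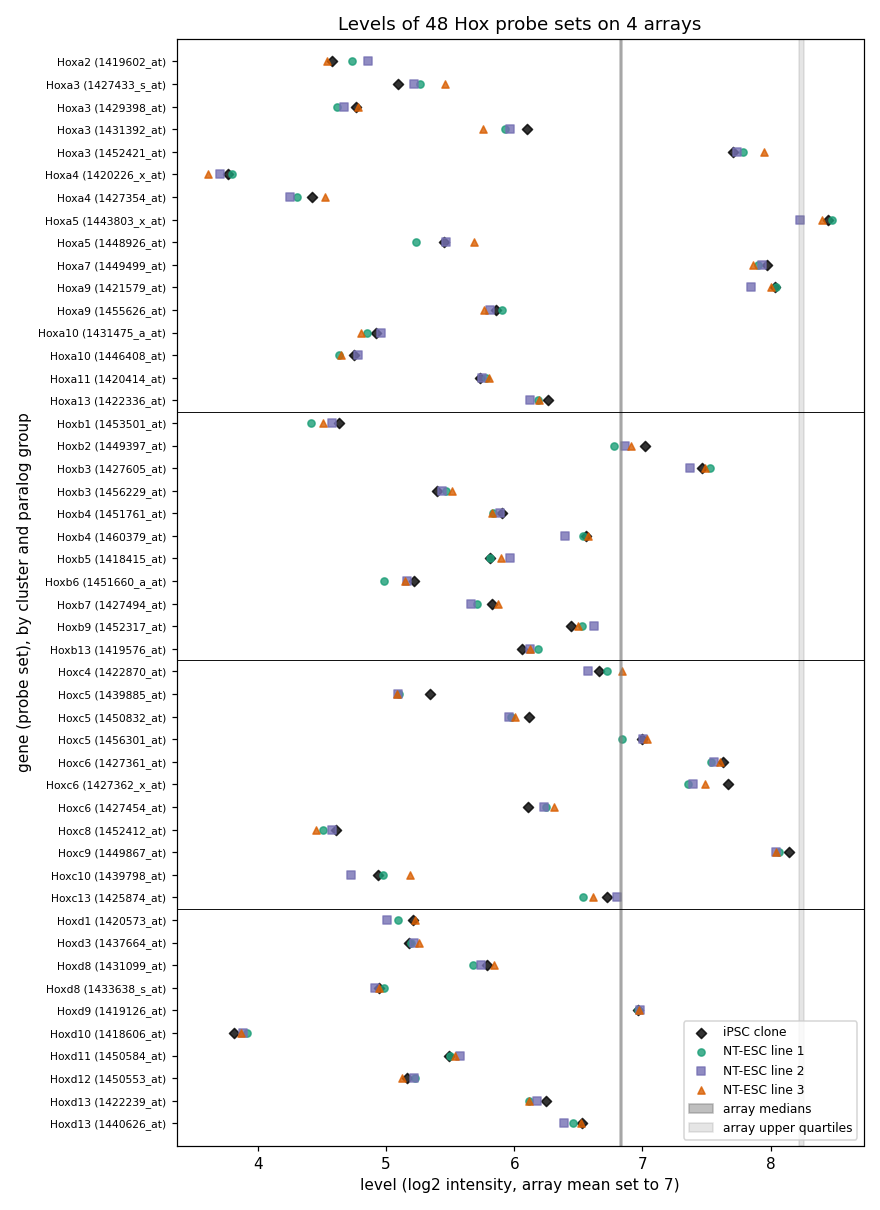
Level of each of the 48 Hox probe sets (rows, by cluster and paralog group) on the log2 intensity scale with the array mean set to 7 (x axis), for the clone and the 3 NT-ESC lines; grey bands mark the array medians and upper quartiles. The 4 arrays lie within 0.467 of one another for every probe set, and most probe sets lie left of the median band.

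The exceptions were 12 probe sets of 11 genes, 10 above the array median on all 4 arrays and 2 on some. Hoxa7, a thoracic gene, had its only probe set at percentiles 69.6 to 71.5: it read 7.97 in the clone, then 7.90, 7.93 and 7.86 in lines 1 to 3. Hoxc9, a gene of the lower thorax, had a level of 8.15 in the clone, with 8.06, 8.04 and 8.04 in lines 1 to 3. Hoxd9 read 6.97 in the clone, then 6.97, 6.99 and 6.98 in lines 1 to 3, and its range of 0.019 over the arrays was the smallest of the 48. These 3 were the genes for which every probe set was above the median on all arrays. Both partial cases lay close to the median. So did Hoxd9, at percentiles 52.8 to 53.4, and Hoxc5 on 1456301_at, at 50.3 to 54.3, though above it on all arrays. Hoxb2, a hindbrain gene, read 7.02 in the clone, then 6.78, 6.86 and 6.91 in lines 1 to 3, and was under the median in line 1 alone. Hoxc4 had a level of 6.66 in the clone, with 6.72, 6.58 and 6.84 in lines 1 to 3, and was above the median in line 3 alone.

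The highest percentile of any Hox probe set was 78.1, for Hoxa5 on 1443803_x_at, which read 8.45 in the clone, then 8.48, 8.23 and 8.40 in lines 1 to 3. The suffix x marks a probe set whose probes also match other transcripts. The other Hoxa5 probe set, 1448926_at, had a level of 5.45 in the clone, with 5.24, 5.47 and 5.68 in lines 1 to 3, under the median on every array. So the 2 probe sets of Hoxa5, a gene of the lung and cervical region, lay on opposite sides of the median. Of the 3 x probe sets, 2 were above the median on all arrays, against 8 of the 41 without a suffix.

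Of 11 Hox genes with several probe sets, 6 had probe sets whose mean levels lay at least 1 apart, and all 6 had one above and one under the median on all arrays. For Hoxa3, which patterns the pharyngeal arches, 1452421_at read 7.71 in the clone, then 7.79, 7.74 and 7.95 in lines 1 to 3. Its other 3 probe sets lay between 4.62 and 6.10. For Hoxa9, a gene of the posterior trunk and of blood progenitors, 1421579_at had a level of 8.04 in the clone, with 8.05, 7.85 and 8.002 in lines 1 to 3, while 1455626_at ran from 5.76 to 5.90. Hoxb3 had 1427605_at at 7.37 to 7.53 and 1456229_at at 5.39 to 5.51. Hoxc5 had 1456301_at at 6.84 to 7.03 and its other 2 probe sets at 5.08 to 6.12. Hoxc6, a thoracic gene, had 2 probe sets at 7.36 to 7.67 and 1427454_at at 6.11 to 6.31. Which probe set reports the mature transcript was not tested. Hoxa4, Hoxa10, Hoxb4, Hoxd8 and Hoxd13 had all of their probe sets under the median on all arrays.

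**Figure D3:**
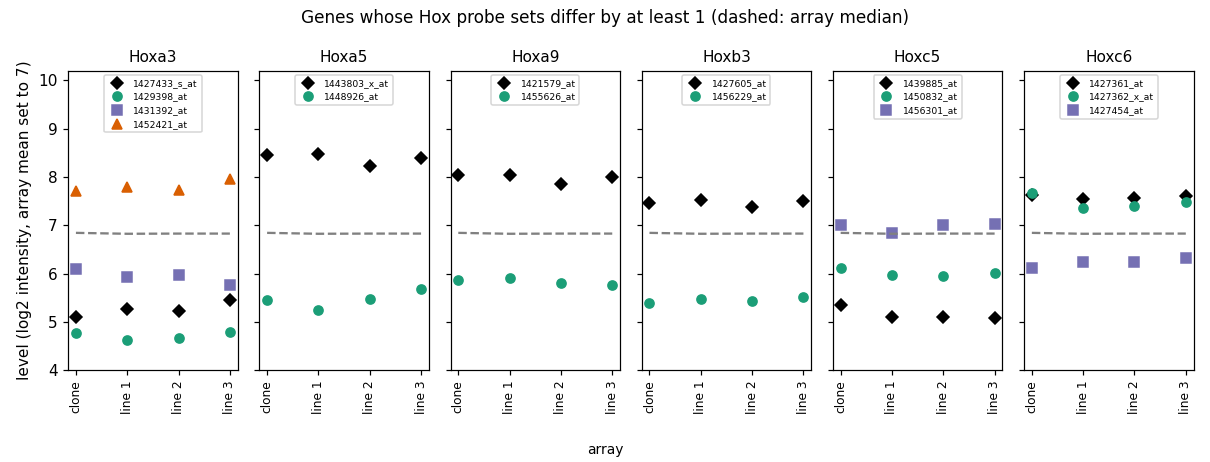
Levels on each array (x axis) of every probe set of the 6 Hox genes whose probe set means lie at least 1 apart, on the log2 intensity scale with the array mean set to 7 (y axis); the dashed line is the array median. In each gene at least 1 probe set is above the line and at least 1 under it on all 4 arrays.

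Between the arrays the Hox probe sets differed little. The range over the 4 arrays had a median of 0.167, against 0.192 over all probe sets, and ran up to 0.467 for Hoxc10. That probe set read 4.93 in the clone, then 4.97, 4.72 and 5.19 in lines 1 to 3, so that line 3 was 1.38-fold over line 2 (1.44-fold if the array mean is taken as 7.863). No Hox probe set was 1.5-fold apart between any pair of arrays. Of all probe sets, 0.415%, 0.206% and 1.13% were that far apart between the clone and lines 1, 2 and 3, and 0.211%, 1.02% and 0.881% between lines 1 and 2, 1 and 3, and 2 and 3.

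Setting the NT-ESC lines against their parental clone compares cells after and before nuclear transfer. The derivation of new lines from cloned blastocysts also lies between them, and these steps cannot be told apart here. No Hox probe set passed limma's test (Benjamini-Hochberg adjusted over 45037 probe sets, smallest 0.849), nor did any other probe set (0.0% called). At an unadjusted p under 0.05 there were 2 of 48 (4.17%), both lower in the lines and none higher, against 5.79% of all probe sets (2.36% lower, 3.44% higher). The median log2 difference over the 48, lines minus clone, was -0.057, against -0.0077 over all probe sets and -0.0276 over all dim ones, those whose mean lay under the median. It was -0.0277 without line 2. For 35 of 48 the difference was smaller than 0.1 in size. The 95% intervals of the 48 differences, unadjusted, reached from -0.488 to 0.509, so none reached 1.5-fold (0.585), also with an array mean of 7.863 (-0.548 to 0.572).

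**Figure D4:**
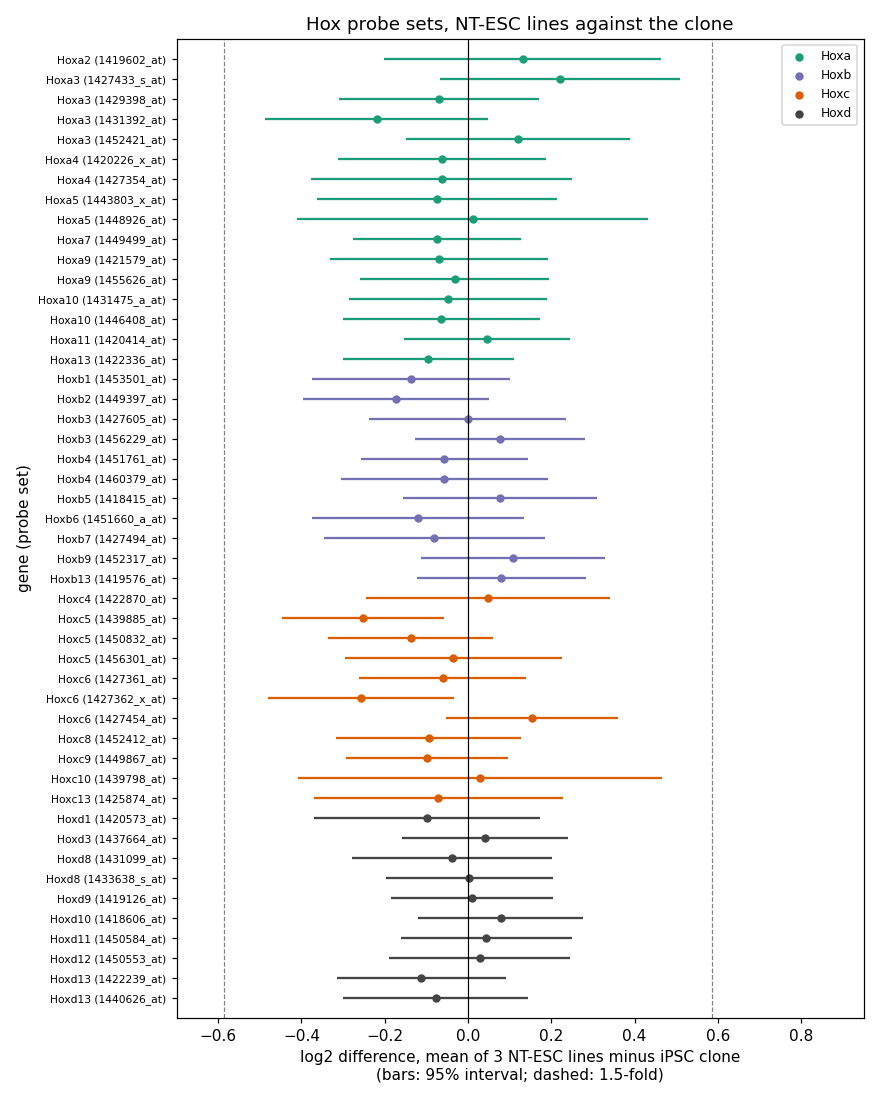
Log2 difference between the mean of the 3 NT-ESC lines and the iPSC clone (x axis) for each Hox probe set (rows), with the 95% interval from limma as a bar and colours for the 4 clusters; dashed lines mark 1.5-fold. The intervals of 46 probe sets span 0, those of 1 Hoxc5 and 1 Hoxc6 probe set lie below it, and none reaches a dashed line.

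The differences did not run one way: 30 of 48 were below 0 and 18 above, against 23679 and 21357 of all 45037 probe sets. Every line was lower than the clone for 15 of 48 Hox probe sets (31.2%), against 27.5% of all probe sets, and every line was higher for 10 (20.8%), against 23.8%. Among the 37 dim Hox probe sets these counts were 10 and 9 of 37, against 32.9% and 18.4% of all dim probe sets. For the other 11 Hox probe sets they were 5 (45.5%) and 1 (9.1%), with 9 of the 11 differences below 0. No share over all brighter probe sets was computed, so the counts of these 11 have no matching background. The shares over the 48 and over the 37 lie near the background, and none of these counts was tested.

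By cluster, the mean level of the 11 Hoxc probe sets was 6.45 in the clone and 6.35, 6.36 and 6.42 in lines 1 to 3. The Hoxa mean was 5.87 in the clone and 5.84, 5.83 and 5.86 in the lines, the Hoxb mean 6.03 against 5.98, 6.01 and 6.03, and the Hoxd mean 5.53 against 5.51, 5.51 and 5.54. The clone was thus above every line in the mean of the Hoxa and Hoxc clusters, and within the lines for Hoxb and Hoxd. For Hoxa this did not hold for the median over its probe sets, 5.59 in the clone and 5.52, 5.61 and 5.72 in the lines. For Hoxc it did, at 6.66 against 6.54, 6.58 and 6.61. The gaps of the means, lines minus clone, were -0.0217, -0.0257, -0.0707 and -0.0122 for Hoxa, Hoxb, Hoxc and Hoxd. The SD between the lines was 0.016, 0.027, 0.039 and 0.017. With each array centred on its median the gaps, in the same order, were -0.0059, -0.0099, -0.0549 and 0.0036, and with quantile normalization -0.0090, -0.0078, -0.0604 and 0.0114. In the Hoxc cluster 6 of 11 probe sets were lower in every line and 1 was higher in every line, against 27.5% and 23.8% of all probe sets. The 6 belong to Hoxc5, Hoxc6, Hoxc8 and Hoxc9, some to the same gene, and the 1 to Hoxc6. The count was not tested.

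The Hoxc probe sets with the largest differences were 1 of Hoxc5 and 1 of Hoxc6. Hoxc5 on 1439885_at read 5.34 in the clone, then 5.10, 5.09 and 5.08 in lines 1 to 3, a difference of -0.25 ± 0.08 (SE). All 3 lines lay below the clone and close together (SD 0.009), but the clone has no second array. Hoxc6 on 1427362_x_at had a level of 7.67 in the clone, with 7.36, 7.39 and 7.49 in lines 1 to 3, a difference of -0.26 ± 0.09 (SE), both with a limma Benjamini-Hochberg adjusted p of 0.849. The other Hoxc6 probe sets differed by -0.06 (1427361_at) and 0.15 (1427454_at), so those of 1 gene had opposite signs. Of the other Hoxc5 probe sets, 1450832_at read 6.12 in the clone, then 5.97, 5.96 and 6.002 in lines 1 to 3, a difference of -0.14 ± 0.08 (SE) with every line lower, and 1456301_at overlapped between the clone and the lines.

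In the Hoxa cluster the 4 probe sets of Hoxa3 went both ways. Its probe set 1427433_s_at read 5.09 in the clone, then 5.26, 5.22 and 5.46 in lines 1 to 3, a difference of 0.22 ± 0.12 (SE), with every line above the clone. Its probe set 1431392_at had a level of 6.10 in the clone, with 5.93, 5.96 and 5.76 in lines 1 to 3, a difference of -0.22 ± 0.11 (SE), with every line below. Hoxa2, a hindbrain gene, read 4.58 in the clone, then 4.74, 4.86 and 4.54 in lines 1 to 3, with lines on both sides of the clone. Of the 11 genes with several probe sets, 6 had differences of 1 sign and 5 of both.

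In the Hoxb cluster the largest differences in size were those of Hoxb2, Hoxb1 (-0.14), Hoxb6 and Hoxb9. Hoxb2 differed by -0.17 ± 0.09 (SE). Hoxb6, a gene of the thorax, had a level of 5.22 in the clone, with 4.98, 5.16 and 5.15 in lines 1 to 3, a difference of -0.12 ± 0.10 (SE). Hoxb9, also thoracic, read 6.44 in the clone, then 6.53, 6.62 and 6.50 in lines 1 to 3, a difference of 0.11 ± 0.09 (SE). None of these passed the test. In the Hoxd cluster no difference exceeded 0.112 in size. Hoxd1 ran from 5.01 to 5.23 and Hoxd8, on 1431099_at, from 5.67 to 5.84, with the clone within the lines for both.

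Each line was also set against the other 3 arrays; these contrasts share arrays with one another and with the one above. Line 3 was the array with calls in the whole table (47 of 45037, 0.104%), and none was a Hox probe set (limma, Benjamini-Hochberg adjusted, smallest 0.492). At an unadjusted p under 0.05 there were 5 Hox probe sets for line 3 (10.4%, against 8.94% of all), 4 higher and 1 lower (against 4.9% and 4.04%). There was 1 for line 1 (2.08%, against 3.34% of all), lower, and none higher (against 1.58% and 1.76%). There was 1 for line 2 (2.08%, against 3.48% of all), lower (against 2.04%). After adjustment lines 1 and 2 had no calls in the whole table (0.0%). The 5 were Hoxa3 on 3 probe sets, 2 higher and 1 lower in line 3, Hoxa5 on 1448926_at, which was 0.30 ± 0.12 (SE) above the other arrays, and Hoxc10, which was 0.31 ± 0.12 (SE) above them. The single probe sets were again Hoxa5 on 1448926_at, lower in line 1 (a difference of -0.30), and Hoxc10, lower in line 2 (a difference of -0.31). The range over the arrays was thus largest for these 2 probe sets, and each had one line at either end.

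Line 3 was the highest array for 16 of 48 Hox probe sets (33.3%, against 25.7% of all) and the lowest for 10 (against 26.2% of all). Of those where it was highest, 9 were among the 16 probe sets of paralog groups 1 to 4, several of them of the same gene, Hoxa3. Line 1 was highest for 9 (18.8%, against 21.5% of all), line 2 for 8 (16.7%, against 22.4%) and the clone for 15 (31.2%, against 27.5%). In groups 5 to 8 the clone was highest for 7 of 15 and line 1 lowest for 7 (against 23.9% of all). In groups 9 to 13 the highest array was line 2 for 6 of 17 and line 3 for 2. Not every array is given for each group, and none of these counts was tested.

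The cells were grown on fibroblasts and came from fibroblasts, so the levels of fibroblast markers are given beside these values. Of 19 measured, 5 were under the array median on all arrays, and Col1a1, Col1a2 and Col3a1, which encode fibrillar collagens, stood at mean percentiles of 92.4, 96.4 and 89.5. The mean level of the 19 was 7.90 in the clone, 7.87 in line 1, 7.98 in line 2 and 7.88 in line 3. With each gene by its brightest probe set, line 2 was the highest array for 8 of 19 fibroblast markers and 7 of 33 Hox genes. Over all genes this held for 4288 of 18193. Counted over all 48 Hox probe sets it was 8 (16.7%, against 22.4% of all probe sets). The mean over the 48 Hox probe sets was 5.97 in the clone and 5.92, 5.93 and 5.96 in the lines. The part of fibroblast RNA in the Hox levels themselves was not tested. In RNA of a whole culture, fewer cells of a type and less RNA per cell cannot be told apart.

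Genes that act with or upon the clusters were taken from lists, each gene by its brightest probe set, and no list member passed limma's test in any of the 4 contrasts (Benjamini-Hochberg adjusted). For lines against clone, 11 of the 213 genes on all lists had an unadjusted p under 0.05 in limma, 8 higher and 3 lower, beside 5.79% of all probe sets. Every line was higher than the clone for 4, 3, 4, 6, 6 and 7 of the cofactors, Cdx and axial activators, Polycomb complex 2, Polycomb complex 1, trithorax and flanking genes, and lower for 2, 5, 1, 4, 2 and 8. These lists had 8, 10, 13, 18, 13 and 24 genes measured, and of all genes by brightest probe set 24.7% were higher and 26.7% lower in every line. Among the TALE homeodomain cofactors, which bind DNA together with Hox proteins, 2 of 8 were under the median on all arrays. Pbx2 stood at 9.30 to 9.41 and Pknox1 at 9.02 to 9.12. Meis1 read 6.95 in the clone, then 6.73, 6.84 and 6.75 in lines 1 to 3, a difference of -0.17 ± 0.09 (SE). The list of Cdx and axial activators was named for genes that switch on trunk Hox genes, but it also held Lin28a, Lin28b and Nr6a1. Of its 10 genes, 7 were under the median on all arrays, against 33.2% of all genes. Lin28b was among the 7, and Lin28a and Nr6a1 were not. Cdx1 read 6.17 in the clone, then 6.74, 6.41 and 6.50 in lines 1 to 3, with every line above the clone. Cdx2 had a level of 6.45 in the clone, with 6.11, 6.23 and 6.08 in lines 1 to 3, with every line below it. Fgf8, a growth factor of the tail bud, read 5.08 in the clone, then 5.77, 5.65 and 5.43 in lines 1 to 3, a difference of 0.53 ± 0.14 (SE), the largest in size of that list. None of the 3 passed the test. Lin28a, an RNA-binding protein of pluripotent cells, stood at 10.93 to 11.39.

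Retinoic acid induces Hox genes from the anterior end of the clusters. Of 17 genes of its pathway 5 were under the median on all arrays, 4 (23.5%) were higher and 7 (41.2%) lower in every line, against 24.7% and 26.7% of all genes. The receptor Rarg stood at 10.86 to 11.23. Of the binding proteins, Crabp1 read 7.51 in the clone, then 7.76, 7.64 and 7.99 in lines 1 to 3, and Crabp2 had a level of 7.50 in the clone, with 7.21, 7.34 and 7.06 in lines 1 to 3. Every line lay above the clone for Crabp1 and below it for Crabp2. Aldh1a2, which makes retinoic acid in the trunk, read 5.69 in the clone, then 5.45, 5.54 and 5.52 in lines 1 to 3.

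The chromatin regulators of the clusters lay on the other side of the median. None of the 13 genes of Polycomb repressive complex 2, which methylates histone H3 at silent Hox genes, was under the median on any array. Suz12, a core subunit, read 10.58 in the clone, then 10.90, 10.84 and 10.92 in lines 1 to 3, a difference of 0.30 ± 0.08 (SE). Epop, an accessory subunit, had a level of 10.52 in the clone, with 10.36, 10.21 and 9.95 in lines 1 to 3. Every line lay above the clone for Suz12 and below it for Epop, and neither passed the test. Of 18 Polycomb repressive complex 1 genes 1 was under the median on all arrays, Cbx8, and Rnf2, a ubiquitin ligase of the complex, ranged over 10.50 to 10.62. Of 13 trithorax genes and histone H3 demethylases, which oppose Polycomb, none was under the median. Rbbp5, a core subunit, read 9.55 in the clone, then 9.85, 9.81 and 10.09 in lines 1 to 3, and the demethylase Kdm6b had a level of 8.71 in the clone, with 8.95, 8.93 and 9.07 in lines 1 to 3. The median log2 differences, lines minus clone, were 0.040, 0.043 and 0.054 for these 3 lists, against -0.0031 over all genes. The lists were bright, at median percentiles of 97.5, 79.1 and 91.2, against 64.6 for all genes. No genes of like level were set beside them, and these medians were not tested.

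The neighbourhood of the clusters was mixed. Of 24 flanking genes 5 were under the median on all arrays, among them Evx1, the homeobox gene at the end of the Hoxa cluster, at 5.92 to 6.09 (chosen after its values were seen). Evx2, its counterpart at the Hoxd cluster, read 7.71 in the clone, then 7.53, 7.48 and 7.52 in lines 1 to 3. Atp5g3, a subunit of mitochondrial ATP synthase that flanks the Hoxd cluster, stood at 12.90 to 12.97. Of 3 antisense transcripts of the clusters, chosen after values were seen, Hoxa11os and Hoxd3os1 were under the median on all arrays, at 4.67 to 5.03, and Hoxb5os stood at 7.39 to 7.58.

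Other homeobox genes of differentiated lineages gave a comparison of the same kind. Of 64 measured, 38 (59.4%) were under the array median on all arrays, beside 66.7% of the 33 Hox genes by brightest probe set and 33.2% of all genes. Every line was lower than the clone for 23 of the 64 (35.9%) and higher for 8 (12.5%), against 26.7% and 24.7% of all genes. The list is dimmer than all genes, and over all dim probe sets the shares were 32.9% and 18.4%. These counts were not tested. Otx2, which is active in pluripotent cells leaving the naive state, read 8.74 in the clone, then 7.97, 8.37 and 8.99 in lines 1 to 3. Gbx2, a target of LIF signalling, ranged over 9.40 to 9.76. Phox2a, an autonomic neuron gene, had a level of 7.36 in the clone, with 7.79, 7.63 and 7.62 in lines 1 to 3. Of 7 neural markers 3, and of 7 mesoderm markers 3, were under the median on all arrays, against 33.2% of all genes. The medians of the lists for line 3 against the other arrays were 0.0561 for endoderm, 0.0689 for mesoderm and -0.0825 for neural markers. By brightest probe set it was 0.0253 for the Hox genes and -0.0059 over all genes, and over the 48 Hox probe sets 0.0127.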

How the data were processed

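Messenger RNA of 4 samples was measured on 1 Affymetrix array each. The authors labelled the RNA by in vitro transcription with biotin, per the labels' protocols, while scaling and summary software is not given in the sources used here. Values deposited by the authors are log2 ratios with 3 decimals: 2 raised to the value averages 1 on each array and behaves as log intensity over its array mean. Levels are that ratio times 7, an assumed mean; 6 and 7.863 were tried. The design was fixed for log values as given, which became an alternative. The 64 control probe sets were dropped. limma 3.58.1 (R 4.3.3) fitted all 45037 others by lmFit, then eBayes, with two-sided p-values adjusted by the Benjamini-Hochberg method (threshold 0.05), and was tested on simulated data. The clone, with 1 array, was assumed to vary like the lines, and the number of arrays limits the precision. Lists took the brightest probe set of each gene. Named were Hox probe sets above the median on any array, the 2 of each cluster with the largest ranges, the 5 with the largest differences in each direction, those of genes with probe sets 1 apart, and, of each list, the 3 genes with the largest differences and the 3 highest means; others are said to be chosen after values were seen. Members and lists were chosen with earlier results of these data known. Alternatives are in the closing section.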

Additional observations from a re-analysis of the deposited data

How the results depend on the processing

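No Hox probe set was called in any contrast under any alternative run, and the smallest Benjamini-Hochberg adjusted p of a Hox probe set (limma) for lines minus clone stayed at or above 0.71. On the deposited scale, where differences are not log2 fold changes, the median difference was -0.0127, and the gap of lines minus clone was -0.0054 for Hoxa and -0.0164 for Hoxc. With each array centred on its median the Hoxa gap was -0.0059, with quantile normalization the Hoxd gap was 0.0114, and with cluster medians the gaps were 0.0248 for Hoxa and 0.0344 for Hoxd. The Hoxb gap was -0.0099 with centring, -0.0078 with quantile normalization and -0.0079 with cluster medians. Over probe sets at or above the median of all, the gaps were -0.0872 for Hoxb, -0.1133 for Hoxc and 0.0097 for Hoxd. Only 11 Hox probe sets remained there. The Hoxb gap rested on Hoxb2 and on 1427605_at of Hoxb3, and the Hoxd gap on Hoxd9 alone. Leaving out 1 line at a time gave -0.0605 to -0.0277 for the median difference, and these added alternatives gave -0.0302 to -0.0149 for Hoxa, -0.0393 to -0.0123 for Hoxb, -0.0929 to -0.0575 for Hoxc and -0.0219 to -0.0073 for Hoxd. The share of Hox probe sets under the array median, 77.1% in the clone and on average in the lines, was 69.7% in both with 1 probe set per gene and 83.3% in both against the median of single-gene probe sets. Against the lower quartile it was 41.7% in the clone and 41.0% in the lines, and against the upper quartile 97.9% and 98.6%. Uncalled differences of single probe sets changed sign on leaving out 1 line: over the 3 such fits they ranged from -0.100 to 0.123 for Hoxa5 1448926_at, -0.033 to 0.044 for Hoxb3 1427605_at, -0.085 to 0.149 for Hoxc10 1439798_at, -0.013 to 0.117 for Hoxc4 1422870_at, -0.072 to 0.024 for Hoxc5 1456301_at and -0.084 to 0.000 for Hoxd8 1431099_at. With centring Hoxb3 1427605_at was at 0.014. The cause was not tested. No paired analysis was possible because the clone has 1 array and shares only 1 replicate number with the lines.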
